A study of Mus musculus with 5 samples.

Results

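Dnase1, Inmt, Sectm1b, BC049987, Dcxr, Upb1, Lpl, Isoc2a, Slc18a1 and Cmbl are 10 of the 35478 genes listed for the kidneys of mice that lack Prdm16 in tubular cells and of their controls. They were chosen by name from these libraries, because the 3 Ksp-Cre/Prdm16fl/fl libraries lay far below both Prdm16fl/fl libraries and differed little from each other. Their difference between the genotypes, their small spread and their standard errors are therefore descriptions of the choice and carry no test here. All 10 passed the filter on low counts, which left 16394 genes.

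The libraries are 1 per mouse, from 2 Prdm16fl/fl mice, which the labels number 1 and 3, and from 3 Ksp-Cre/Prdm16fl/fl mice, numbered 1, 2 and 3. All 5 mice carried the floxed Prdm16 allele. Their strain is C57BL/6J;129 in the strain label and in the methods, while the sample titles say C57BL/6J. They were males of 7 to 8 weeks with littermates as controls according to the methods. All 5 had unilateral ischemia-reperfusion injury (UIRI) of the left kidney, by a clamp on its pedicle for 35 minutes at 38.5°C. The right kidney was removed at day 10 and tissue was taken 24 hours later, at 11 days. The methods name kidney cortex as the tissue, where the labels say kidney. The groups differ in the Ksp-Cre transgene, which expresses Cre recombinase from the Ksp-cadherin promoter in tubular epithelium, so cells other than tubular cells keep Prdm16. No library of a kidney without injury was compared here, so every difference is between injured kidneys.

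Total counts ranged from 14939040 to 16425161, and the libraries were all distinct. Ksp-Cre/Prdm16fl/fl mouse 3 stood apart from mice 1 and 2 of its group. A chi-square of the counts per degree of freedom was 9.89 between mice 1 and 2, and 74.5 and 62.7 between each of them and mouse 3. Among 13873 genes whose mean log2 CPM was 1 or more, mouse 3 was the library farthest from the median of its group for 64.3%, against 3 of the 10 genes chosen. The 10 were chosen for little difference among these 3 libraries, so this contrast follows from the choice. CPM is the count per 1000000 TMM-scaled counts, where TMM is edgeR's scaling between libraries. Prdm16, the deleted gene, was 25.28 and 20.02 CPM in the Prdm16fl/fl kidneys and 17.1, 17.0 and 18.0 CPM in those with Ksp-Cre, with a log2 fold change of -0.38 (standard error 0.15, edgeR quasi-likelihood adjusted p = 0.259). Its count covers the whole gene and every cell type of the tissue.

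The kidney's proximal tubule takes up sugars, amino acids, nucleosides and drugs from the filtrate and breaks down much of what it takes up, and so holds high levels of many soluble enzymes. Small-molecule breakdown there depends on reductases, methyltransferases, hydrolases and transporters that each handle a class of compound, and many of these genes are also active in liver. After ischemic injury, tubular cells are known to lose part of this program while markers of injury rise.

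The name of metabolic genes holds for most of the 10 and not for all. Inmt, Dcxr, Upb1, Lpl, Isoc2a and Cmbl encode enzymes of small molecules or lipids or proteins with the fold of such enzymes. Dnase1 encodes a secreted nuclease, Sectm1b a secreted and transmembrane protein related to a ligand of CD7, and Slc18a1 a vesicular transporter of monoamines. BC049987 is annotated as a long noncoding RNA in RefSeq. The 10 are therefore treated below by what each encodes.

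Dnase1, the secreted endonuclease that cuts extracellular DNA in urine and other fluids, had the highest level per gene length. The files place it on chromosome 16, plus strand, from 3854822 to 3857888, with 1492 bases of merged exons. Counts in the Prdm16fl/fl kidneys were 6292 for mouse 1 and 7331 for mouse 3, and those of Ksp-Cre/Prdm16fl/fl mice 1, 2 and 3 were 1485, 1544 and 1177. In CPM these were 424 and 526 against 84.3, 91.2 and 78.4. The highest Ksp-Cre/Prdm16fl/fl library lay 4.65-fold below the lowest Prdm16fl/fl library. The Prdm16fl/fl mean was 475 ± 72.0 CPM (SD, n = 2 mice). With Ksp-Cre it was 84.6 ± 6.40 CPM (SD, n = 3 mice), or 17.8% of the Prdm16fl/fl mean, with a log2 fold change of -2.49 (standard error 0.15). In a bulk sample, fewer cells that express a gene and less RNA per cell cannot be told apart, and this holds for each of the 10.

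Inmt, which methylates tryptamine and other indoles and amines from S-adenosylmethionine, showed the largest difference. Its position is chromosome 6, minus strand, from 55147612 to 55151975. The Prdm16fl/fl mice had 159 and 204 CPM, and Ksp-Cre/Prdm16fl/fl mice 1, 2 and 3 had 14.9, 18.8 and 25.7 CPM, which left 10.9% of the Prdm16fl/fl mean. The log2 fold change was -3.20 (standard error 0.25). Inmt also varied most among the 3 Ksp-Cre/Prdm16fl/fl libraries, with mouse 3 at 1.72 times mouse 1, and yet its gap of 6.19-fold between the nearest libraries of the groups was the widest of the 10.

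BC049987, the noncoding RNA, had the lowest counts of the 10. On chromosome 9, minus strand, it spans 44581865 to 44583557, with 825 bases of exons. Its counts were 326 and 351 in the Prdm16fl/fl mice and 89, 80 and 81 in the Ksp-Cre/Prdm16fl/fl mice. In CPM it was 22.0 and 25.2 against 5.05, 4.73 and 5.40, a log2 fold change of -2.22 (standard error 0.17) with 21.5% remaining. The Ksp-Cre/Prdm16fl/fl libraries differed from each other by no more than 1.14-fold.

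Promoters were matched by symbol in a RefSeq table of GRCm38.p6, with 250 bases before and 50 bases after each start. The table gave 8 of the 10, without Lpl and Slc18a1, and held 2 promoters for Dnase1. A gene of the 8 was counted where any of its promoters held the letters, whereas shares of all are per promoter. The letters TATAAA, searched on both strands, were found in the promoters of Dnase1, Inmt and BC049987 and in 13.6% of all 32851 promoters of that length. The sequences before the gene are given 5′ to 3′ on the gene's strand to show where the matches lie. Capitals mark TATAAA or its complement TTTATA, and CCAAT or its complement ATTGG, which did not overlap one another.
Dnase1 (chr16:4036786-4036957, plus strand): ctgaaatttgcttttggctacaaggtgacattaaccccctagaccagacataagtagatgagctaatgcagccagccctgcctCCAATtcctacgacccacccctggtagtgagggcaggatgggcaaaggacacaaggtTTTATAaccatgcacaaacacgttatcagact
Inmt (chr6:55174991-55175240, minus strand): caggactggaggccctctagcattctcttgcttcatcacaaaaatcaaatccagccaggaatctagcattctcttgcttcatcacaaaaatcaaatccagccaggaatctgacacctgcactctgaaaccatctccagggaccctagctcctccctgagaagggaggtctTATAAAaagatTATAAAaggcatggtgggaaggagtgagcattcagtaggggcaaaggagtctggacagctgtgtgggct
BC049987 (chr9:44672261-44672510, minus strand): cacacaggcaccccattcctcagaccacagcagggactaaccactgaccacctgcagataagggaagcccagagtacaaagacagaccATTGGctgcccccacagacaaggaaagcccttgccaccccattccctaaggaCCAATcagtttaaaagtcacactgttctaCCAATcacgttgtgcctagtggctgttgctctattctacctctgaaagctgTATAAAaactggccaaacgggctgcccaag
The TATAAA match of BC049987 began 30 bases before the annotated start and was on the gene's strand. Inmt held 2 such matches, which began 80 and 69 bases before its start. Dnase1 held its match on the other strand, 110 bases before the first start of its 2 promoters. Its annotated gene span begins upstream of both of these starts, and only bases outside that span are printed. The Inmt sequence also holds a stretch of 46 bases in 2 copies that follow each other without a gap. The longest stretch that recurred within the printed bases was 7 bases for Dnase1 and 11 bases for BC049987. A match is a description of the letters and not of a bound site.

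**Figure D1:**
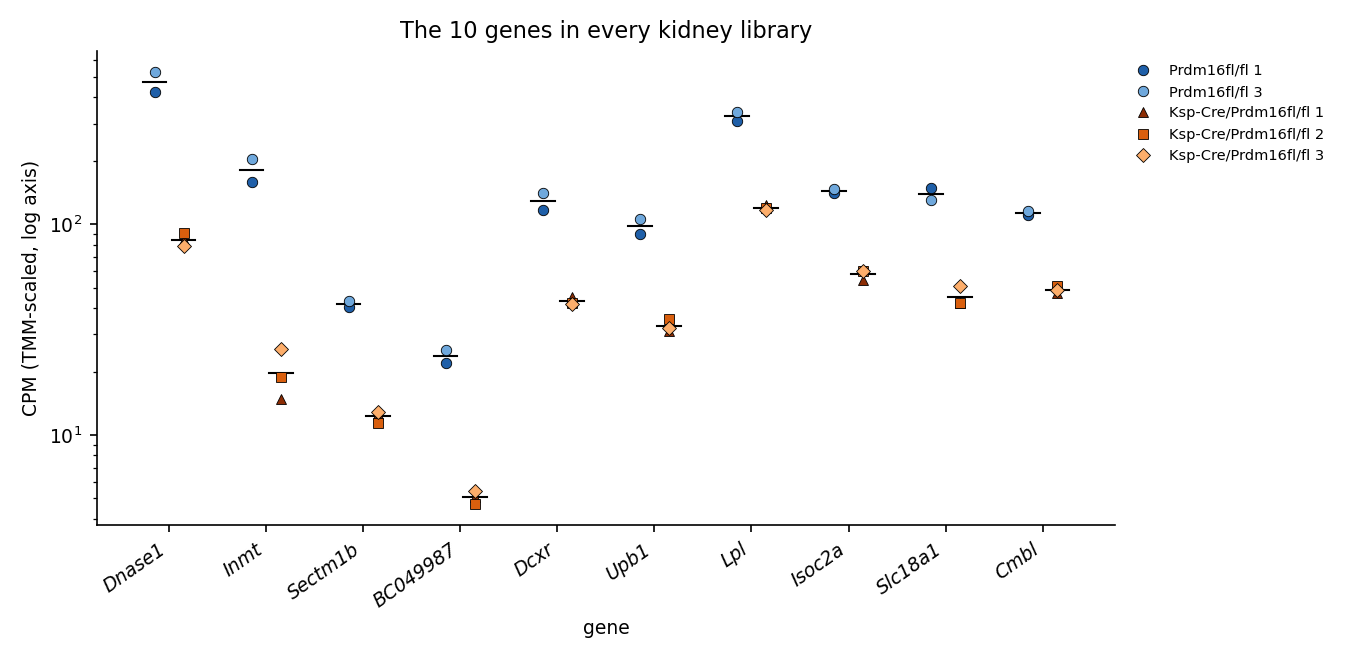
CPM of the 10 genes (log axis) in each library, with circles for Prdm16fl/fl mice 1 and 3, with a triangle, a square and a diamond for Ksp-Cre/Prdm16fl/fl mice 1, 2 and 3, and a bar at each group's mean. In all 10 genes the 3 Ksp-Cre/Prdm16fl/fl points lie below both Prdm16fl/fl points, from 424 and 526 against 78.4 to 91.2 CPM for Dnase1 to 22.0 and 25.2 against 4.73 to 5.40 CPM for BC049987.

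The plot of CPM by library shows all 10 genes on one scale. In each of the 10, all 3 Ksp-Cre/Prdm16fl/fl libraries were below both Prdm16fl/fl libraries, which is what they were chosen for. The same was true of 21.3% of all genes tested. For other genes, the thresholds used below are an edgeR adjusted p below 0.05 with a log2 fold change of 1 or more in size, which 0.628% of the genes tested passed as lower. They are not applied to the 10, since the choice used the same values. The median log2 fold change of the 10 was -1.60, where that of all genes tested was 0.038.

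Of the enzymes, Dcxr reduces dicarbonyls and L-xylulose, a step of the glucuronate pathway, and is an abundant protein of proximal tubules. Its position is chromosome 11, minus strand, from 120615372 to 120618110. Its level was 117 and 140.1 CPM in the Prdm16fl/fl mice and 45.0, 42.2 and 42.0 CPM in the Ksp-Cre/Prdm16fl/fl mice, and its log2 fold change was -1.58 (standard error 0.12). The spread between the Prdm16fl/fl mice, 12.4% of their mean, was wider than the 3.87% among the 3 Ksp-Cre/Prdm16fl/fl mice.

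Upb1, beta-ureidopropionase, catalyses the last step of uracil and thymine breakdown, which yields beta-alanine and beta-aminoisobutyrate. On chromosome 10, plus strand, it spans 75242745 to 75277513. Its level was 90.3 and 106 CPM against 31.2, 35.6 and 32.3 CPM, a log2 fold change of -1.57 (standard error 0.13). Dcxr and Upb1 thus left nearly the same share of the Prdm16fl/fl mean, 33.4% and 33.6%.

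Isoc2a, a protein with an isochorismatase domain, and Cmbl, a hydrolase known to activate the ester prodrug olmesartan medoxomil, had the smallest differences. Isoc2a, on the plus strand of chromosome 7 from 4880052 to 4898716, was 141 and 146 CPM against 54.5, 59.9 and 60.2 CPM. Cmbl, on the plus strand of chromosome 15 from 31565314 to 31590266, was 110.2 and 116 CPM against 47.1, 51.0 and 48.6 CPM. The log2 fold changes were -1.30 (standard error 0.11) for Isoc2a and -1.21 (standard error 0.10) for Cmbl, with 40.6% and 43.2% remaining. Both varied within each group by no more than 1.10-fold.

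Lpl, lipoprotein lipase, hydrolyses triglycerides of lipoproteins at the wall of capillaries. Its position is chromosome 8, plus strand, from 69333207 to 69359584. Its level was 309 and 341 CPM in the Prdm16fl/fl mice and 123, 119.5 and 116 CPM in the Ksp-Cre/Prdm16fl/fl mice, and its log2 fold change was -1.44 (standard error 0.12). The 3 Ksp-Cre/Prdm16fl/fl libraries stood within 1.06-fold of each other, the narrowest spread of the 10. Adipocytes are a known source of Lpl, and their defining markers were at or near 0. Adipoq, Plin1, Lep, Retn, Cfd and Ucp1 had at most 4 counts in any library, and Cidec reached 3.60 CPM in Ksp-Cre/Prdm16fl/fl mouse 3 and less than 1 CPM elsewhere.

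Of the transporter and the surface protein, Slc18a1 loads monoamines into vesicles of endocrine cells. It lies on the same chromosome, minus strand, from 69490360 to 69547951, and its 9195 bases of exons are the most of the 10. Its level was 148 and 129.8 CPM against 42.1, 42.2 and 50.7 CPM, a log2 fold change of -1.63 (standard error 0.14). It was the only one of the 10 with its higher Prdm16fl/fl value in mouse 1, since the other 9 were higher in mouse 3. Sectm1b lies on chromosome 11, minus strand, from 120944249 to 120954412. It was 40.4 and 43.1 CPM against 12.6, 11.3 and 12.9 CPM, a log2 fold change of -1.77 (standard error 0.13).

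The remaining printed promoters, those of Dcxr, Upb1 and Isoc2a, hold CCAAT letters, which occurred in 5 of the 8 genes matched and in 37.4% of all promoters.
Dcxr (chr11:120727285-120727534, minus strand): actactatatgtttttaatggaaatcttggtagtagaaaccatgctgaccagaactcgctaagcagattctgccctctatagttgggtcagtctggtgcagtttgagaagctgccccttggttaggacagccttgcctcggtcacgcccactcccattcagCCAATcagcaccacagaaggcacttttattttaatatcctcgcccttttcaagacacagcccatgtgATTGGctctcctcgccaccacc
Upb1 (chr10:75406661-75406910, plus strand): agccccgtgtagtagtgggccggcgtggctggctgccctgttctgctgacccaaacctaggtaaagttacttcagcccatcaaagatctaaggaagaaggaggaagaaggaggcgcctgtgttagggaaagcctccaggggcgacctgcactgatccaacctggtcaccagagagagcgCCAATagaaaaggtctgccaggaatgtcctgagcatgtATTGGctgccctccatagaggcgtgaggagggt
Isoc2a (chr7:4876803-4877052, plus strand): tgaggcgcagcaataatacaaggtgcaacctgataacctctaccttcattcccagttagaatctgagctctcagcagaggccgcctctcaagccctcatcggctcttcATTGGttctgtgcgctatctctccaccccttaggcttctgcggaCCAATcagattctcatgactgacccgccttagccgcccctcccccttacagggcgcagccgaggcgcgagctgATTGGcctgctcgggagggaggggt
Dcxr and Upb1 each held 2 CCAAT matches in these bases and Isoc2a held 3, the same number as BC049987 above. The promoters of Sectm1b and Cmbl held neither of these letters. Of the other motifs searched on both strands, the HNF1 letters GTTAAT were in the Dnase1 promoter alone among the 8, and in 7.10% of all promoters. The nuclear receptor core AGGTCA was in the promoters of Dnase1 and Sectm1b and in 16.3% of all. TGTTCT, a core of glucocorticoid receptor sites, was in 3 of the 8 and in 19.0% of all. The GC box GGGCGG was in 1 of the 8 and in 35.7% of all, and the E box CACGTG in 1 of the 8 and in 7.15% of all. The HNF4 site CAAAGTCCA, the ERR site TCAAGGTCA, which holds AGGTCA, and the CEBP site TTGCGCAA were in 0 of the 8, and in 0.475%, 0.423% and 0.183% of all.

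Levels between genes are compared per length in TPM, the authors' count per gene length scaled to the same total in each library. Dnase1 was highest in the Prdm16fl/fl mice, at 693 ± 57.6 TPM (SD, n = 2 mice). Inmt followed at 385 ± 41.4 TPM, Isoc2a at a mean of 288, Lpl at 175 and Dcxr at 157 TPM. Slc18a1 was lowest at a mean of 33.2 TPM, and its higher library stood next to the lower library of Sectm1b. In the Ksp-Cre/Prdm16fl/fl mice the order differed at its upper end. Dnase1 was 147 ± 19.4 TPM (SD, n = 3 mice) and Isoc2a had a mean of 138 TPM, with overlapping libraries. Inmt was in place 6 at 49.4 ± 10.5 TPM and overlapped Cmbl, with a mean of 51.2 TPM. Sectm1b and Slc18a1, with means of 13.1 and 12.6 TPM, overlapped as well. The other neighbours in the order did not overlap.

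The 10 genes are not the whole set of genes with such a gap. Ranked by the lowest Prdm16fl/fl over the highest Ksp-Cre/Prdm16fl/fl CPM among the 13873 genes, Inmt was in place 3, Dnase1 in place 10, BC049987 in place 19 and Cmbl in place 118. Cmbl, the last of the 10, had a gap of 2.16-fold, as did Defb29, the next gene below it. Of the 118 genes with a gap at least that of Cmbl, 108 were not among the 10. Both groups of 31 of these 108 were at least as narrow as the widest of the 10, which was 1.28-fold between the Prdm16fl/fl mice and 1.72-fold among the Ksp-Cre/Prdm16fl/fl mice. They include Shmt2, a mitochondrial enzyme of serine and folate metabolism chosen here after its values were seen, at 249 and 281 against 100.2, 100.4 and 98.9 CPM, and Acsm2, a medium-chain acyl-CoA synthetase of the proximal tubule. The 5 other genes with the widest gaps, Slc22a7, Egf, BC024386, Slc22a28 and Slc22a22, were instead unequal among the Ksp-Cre/Prdm16fl/fl mice. Egf, for example, was 65.6, 41.6 and 9.93 CPM in mice 1, 2 and 3, after 512 and 498 CPM in the Prdm16fl/fl mice. Each of these 5 was lowest in mouse 3.

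**Figure D2:**
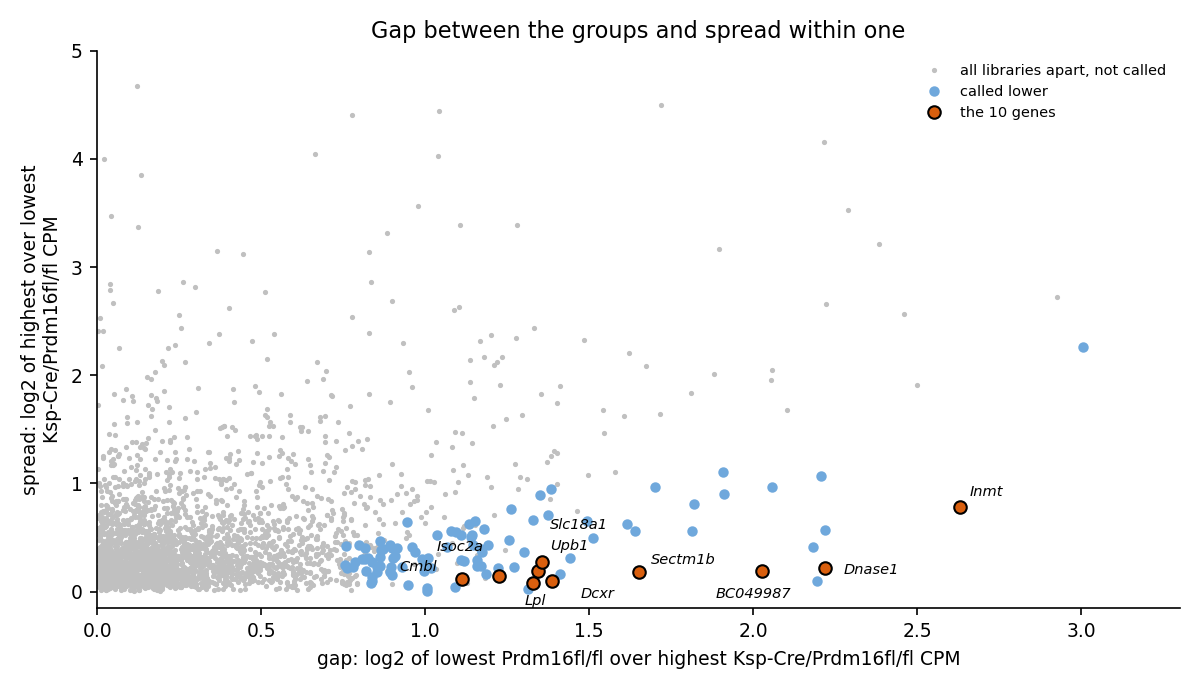
Gap between the groups (log2 of the lowest Prdm16fl/fl over the highest Ksp-Cre/Prdm16fl/fl CPM) against the spread among the Ksp-Cre/Prdm16fl/fl libraries (log2 of the highest over the lowest CPM), for the 3000 genes with a gap above 0 and a mean log2 CPM from 1 upward, of which 1 lies above the plotted range. The 10 genes (orange) have gaps from 1.11 to 2.63, and Inmt, with a spread of 1.72-fold, lies apart from the other 9, and genes called lower by edgeR at the thresholds of the text are blue.

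The plot of gap against spread places the 10 among these genes. The highest over the lowest Ksp-Cre/Prdm16fl/fl library had a median of 1.14-fold over the 10, 1.31-fold over all 13873 genes and 1.24-fold over 100 genes called lower. Small spread was part of how the 10 were chosen, although Inmt, at 1.72-fold, was above the median of all these genes.

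By the root mean square distance of log2 differences from the Prdm16fl/fl mean over the 5 libraries, the genes outside the 10 closest to Dnase1 were Gm34472 at 0.202, Gm15348 at 0.219, Slc22a8 at 0.226, Ugt3a1 at 0.242 and Ciart at 0.288. Slc22a8, an organic anion transporter of the proximal tubule, was 344 and 471 CPM against 73.8, 67.0 and 49.6 CPM. Ciart, a repressor of the circadian clock, was 19.1 and 23.1 CPM against 3.69, 5.43 and 4.86 CPM. Closest to the median profile of the 10 were 0610006L08Rik at 0.0977, Acsm2 at 0.131, Trim63 at 0.155, Ftcd at 0.157 and Slc22a18 at 0.159. Acsm2 was 2290 and 2070 CPM against 697, 779 and 741 CPM. Within the 10, Dcxr, Upb1 and Sectm1b lay nearest to their shared median profile, at 0.0854, 0.0933 and 0.108, and Inmt lay farthest, at 1.24.

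Markers of tubular segments were lower, as the 10 genes were. All 14 markers of the proximal tubule were lower in the Ksp-Cre/Prdm16fl/fl mice, and their summed level was 14100 and 14500 CPM against 5540, 6610 and 6040 CPM. Of the 14, 3 were lower past the thresholds, beside 0.628% of all genes tested. Markers of other segments were lower as well, all 5 of the thick ascending limb, all 4 of the distal convoluted tubule and all 7 of the collecting duct, with 55.3%, 46.4% and 62.1% of the Prdm16fl/fl sum remaining, where 42.4% remained for the proximal tubule. Sums of the thick ascending limb were 3130 and 4100 CPM against 2540, 2260 and 1190 CPM. Those of the distal convoluted tubule were 1900 and 1170 CPM against 1100, 710 and 327 CPM. Those of the collecting duct were 707 and 613 CPM against 521, 332 and 377 CPM. All 5 markers of podocytes, the cells of the glomerular filter, were lower too, with 66.2% remaining. Markers of fibroblasts and pericytes were higher for 5 of 6, with sums of 247 and 348 CPM against 519, 468 and 382 CPM. Outside the proximal tubule edgeR called 0 genes of these lists, of which 4 collecting duct, 1 distal convoluted tubule, 2 thick ascending limb, 3 podocyte and 3 fibroblast or pericyte genes had an unadjusted p under 0.05. DESeq2 called 1 gene each of the collecting duct, the thick ascending limb and the podocytes as lower, and limma 0. All 8 markers of injured tubules were higher, with sums of 2980 and 2400 CPM against 5540, 5030 and 4660 CPM, of which edgeR called 0, with 7 at an unadjusted p under 0.05, DESeq2 called 5 and limma 0. All 5 erythrocyte markers were higher, with sums of 6.67 and 10.8 CPM against 151, 150 and 40.5 CPM, of which edgeR called 0, with 5 at an unadjusted p under 0.05, DESeq2 called 5 and limma 0. Endothelial markers summed to between 161 and 227 CPM in the 5 libraries, with overlapping groups. The part of these cell types in the levels of the 10 genes was not tested.

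Set beside the proximal tubule sum, the 10 genes took different positions. Relative to the Prdm16fl/fl mean, the log2 difference of the sum was -1.37, -1.11 and -1.24 for Ksp-Cre/Prdm16fl/fl mice 1, 2 and 3. Cmbl differed from it by 0.10, -0.04 and 0.03, and Isoc2a by -0.03, -0.15 and -0.01. These 2 genes were thus lower by about as much as the sum, though not as each marker. Lpl differed from the sum by -0.03, -0.33 and -0.24. Inmt was lower than the sum by a further -2.24, -2.15 and -1.58, and Dnase1 by -1.13, -1.27 and -1.36. The sum follows its most abundant markers, which were less even among the Ksp-Cre/Prdm16fl/fl mice than the sum. In mice 1, 2 and 3, Slc34a1 was 1040, 1040 and 483 CPM, while Slc27a2 was 1370, 1780 and 2480 CPM. Such opposite differences in mouse 3 partly offset each other in the sum. Log2 fold changes of its single markers ran from -0.37 for Hnf4a to -3.37 for Slc7a13, and those of Inmt and Dnase1 lay within this range.

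**Figure D3:**
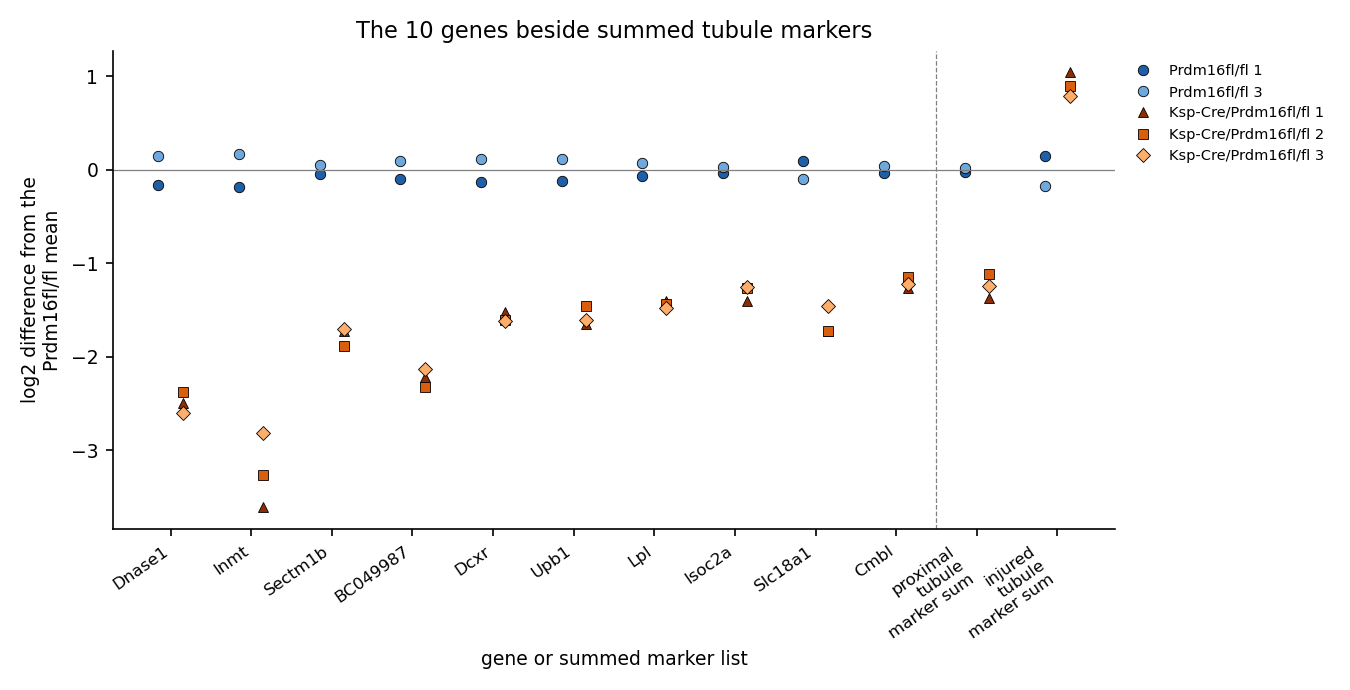
log2 difference of each library from the Prdm16fl/fl mean for the 10 genes and, right of the dashed line, for the summed CPM of 14 proximal tubule and 8 injured tubule markers. The proximal tubule sum lies at -1.37, -1.11 and -1.24 in the Ksp-Cre/Prdm16fl/fl mice, level with Cmbl and Isoc2a, while Inmt, Dnase1 and BC049987 lie lower and the injured tubule sum lies above 0.

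The plot of log2 differences shows the same values for every library. The 10 genes had a median of -1.69, -1.66 and -1.61 for Ksp-Cre/Prdm16fl/fl mice 1, 2 and 3. For Prdm16fl/fl mice 1 and 3 it was -0.09 and 0.08. Mouse 3, which stood apart for most genes, was the lowest of its group for 3 of the 10 and the highest for 5. These positions lie within the small spread for which the 10 were chosen.

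Close relatives of the 10 genes were not used to choose them. Of 14 relatives listed, 11 could be tested and 0 passed the thresholds in either direction by edgeR's quasi-likelihood test, where 3 had an unadjusted p under 0.05, and DESeq2 and limma called 0 as well. Their median log2 fold change was 0.04. All 3 Ksp-Cre/Prdm16fl/fl libraries lay below both Prdm16fl/fl libraries for 4 of the 11, beside 21.3% of all genes tested, and above them for 2, beside 20.3%.

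Dnase1l1 and Dnase1l2, nucleases of the family of Dnase1, had log2 fold changes of 0.18 and 0.05 (adjusted p = 0.465 and 0.937 by edgeR). Dnase1l3, a nuclease of macrophages and dendritic cells, was 3.98 and 3.80 CPM against 1.82, 2.95 and 0.333 CPM, a log2 fold change of -1.18 (adjusted p = 0.418 by edgeR). Nnmt, which methylates nicotinamide and is the nearest relative of Inmt, was 2.43 and 3.80 CPM against 4.88, 5.91 and 7.66 CPM, the opposite direction from Inmt (log2 fold change 0.98, adjusted p = 0.194 by edgeR). Sectm1a, which is listed next to Sectm1b at 3.8 kb from it, was 3.44 and 3.44 CPM against 3.24, 3.54 and 2.80 CPM (log2 fold change -0.11, adjusted p = 0.854 by edgeR). Its groups overlapped.

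Isoc2b, listed 10.9 kb from Isoc2a, was 19.1 and 22.7 CPM against 7.78, 10.7 and 1.47 CPM. All 3 Ksp-Cre/Prdm16fl/fl libraries were lower, but mouse 3 lay far below the other two, and the log2 fold change of -1.64 had a standard error of 0.66 (adjusted p = 0.259 by edgeR). Cbr2, a carbonyl reductase related to Dcxr and listed 2.2 kb from it, was 4.52 and 4.81 CPM against 2.10, 2.01 and 0.200 CPM (log2 fold change -1.68, adjusted p = 0.285 by edgeR). Without mouse 3 the log2 fold changes of Isoc2b and Cbr2 were both -1.17, with adjusted p = 0.00372 and 0.0132 by edgeR. Of all 16196 genes in that fit, 502 were called lower and 231 higher, and 5536 had an unadjusted p under 0.05. Isoc2a and Dcxr themselves showed no such drop in mouse 3, which follows from their choice for small spread. Isoc1 was 0.06 on the log2 fold change scale (adjusted p = 0.889 by edgeR).

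Slc18a2, the vesicular monoamine transporter of neurons, was 4.38 and 4.16 CPM against 5.28, 4.67 and 3.20 CPM (log2 fold change 0.04, adjusted p = 0.956 by edgeR). Slc18b1, a vesicular polyamine transporter, was lower in all 3 Ksp-Cre/Prdm16fl/fl libraries by a log2 fold change of -0.37 (adjusted p = 0.189 by edgeR). Lipg, the endothelial lipase, was 1.21 and 1.08 CPM against 4.83, 3.19 and 0.733 CPM (log2 fold change 1.35, adjusted p = 0.390 by edgeR). Without mouse 3 its log2 fold change was 1.81 (adjusted p = 0.00785 by edgeR), in a fit that called 231 of 16196 genes higher. Slc18a3 had 0 counts in all 5 libraries, and Lipc and Pnlip had at most 8 counts in any library.

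**Figure D4:**
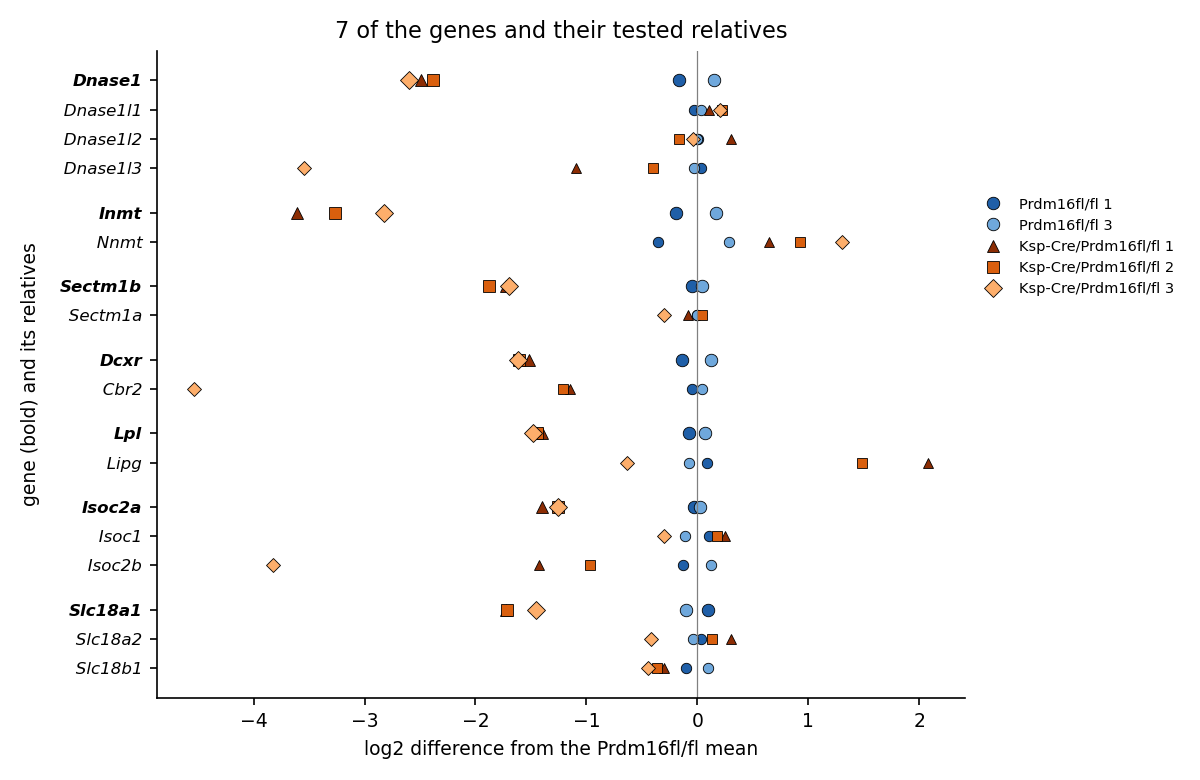
log2 difference of each library from the Prdm16fl/fl mean for 7 of the 10 genes (bold) and, beneath each, its tested relatives, with circles for the Prdm16fl/fl mice and a triangle, a square and a diamond for Ksp-Cre/Prdm16fl/fl mice 1, 2 and 3. Isoc2b, Cbr2 and Dnase1l3 have their lowest value in mouse 3, at 1.47, 0.200 and 0.333 CPM, while Nnmt lies above 0 in all 3 Ksp-Cre/Prdm16fl/fl libraries.

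The plot of relatives shows how far each lies from its gene. Counts of similar genes can also share reads. Of the 50-base stretches in GENCODE M21 transcripts, those of Inmt, Sectm1b, Dcxr, Slc18a1 and Cmbl shared 0 with other genes. Isoc2a shared 0.228%, with Isoc2b not among the genes that shared the most, and Lpl, BC049987 and Upb1 shared 1.4%, 1.52% and 1.82%. Dnase1 shared 12.6%, of which nearly all was with Gm15879, an antisense transcript across its start, and 54 of its 1492 exon bases were also in exons of Trap1 on the other strand. Whether counting used the strand is not given in the sources used here, so the Dnase1 count may hold some antisense reads.

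The pathways around the 10 genes were also examined, through 8 lists of companion genes without the 10 themselves. Of 113 companion genes tested, 9 were lower past the thresholds and 0 were higher, beside 0.628% and 0.0793% of all genes tested. Their median log2 fold change was -0.29, and the lists differed widely.

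Of the pyrimidine and beta-alanine genes around Upb1, 1 of 13 passed, and the median was -0.63. This gene, Abat, the aminotransferase that uses beta-alanine and GABA, was 149 and 127 CPM against 64.3, 75.0 and 65.6 CPM, a log2 fold change of -1.01 (adjusted p = 0.0412 by edgeR). Dpys, the enzyme just before Upb1, was 8.22 and 8.40 CPM against 1.53, 3.66 and 0.733 CPM, the largest difference of this list at -2.06 (adjusted p = 0.143 by edgeR). Dpyd, the first enzyme of the pathway, had overlapping groups and a log2 fold change of -0.02 (adjusted p = 0.974 by edgeR). Slc6a6, the taurine and beta-alanine transporter, was highest in the list at 0.52 (adjusted p = 0.340 by edgeR).

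Of the glucuronate, xylulose and polyol genes around Dcxr, 2 of 13 passed, and the median was -0.61. Miox, the inositol oxygenase of the proximal tubule and one of the 14 markers above, was 911 and 921 CPM against 212, 243 and 130 CPM, a log2 fold change of -2.23 (adjusted p = 0.0412 by edgeR). Sord, sorbitol dehydrogenase, was 893 and 868 CPM against 390, 431 and 456 CPM, at -1.05 (adjusted p = 0.0412 by edgeR). Xylb, the kinase of D-xylulose that lies after Dcxr, was lower in all 3 Ksp-Cre/Prdm16fl/fl libraries at -0.89 (adjusted p = 0.0571 by edgeR). Gulo, at under 2 CPM in every library, had the largest difference of the list at -2.46, and Dhdh the highest value at 0.17 (adjusted p = 0.113 and 0.810 by edgeR).

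Of the methyltransferase and S-adenosylmethionine genes around Inmt, 2 of 15 passed, and the median was -0.58. Bhmt2, which remakes methionine, was 83.9 and 124 CPM against 27.2, 36.7 and 33.4 CPM, a log2 fold change of -1.68 (adjusted p = 0.0412 by edgeR). Ahcy, which removes the product S-adenosylhomocysteine, was 198 and 247 CPM against 98.6, 98.1 and 96.3 CPM, at -1.19 (adjusted p = 0.0395 by edgeR). Nnmt, given above, was the highest of the list.

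Of the esterases and hydrolases around Cmbl, 4 of 18 passed, the most of the 8 lists, and the median was -0.96. Ces1e, a carboxylesterase, was 59.4 and 56.3 CPM against 13.5, 10.8 and 6.93 CPM, a log2 fold change of -2.47 (adjusted p = 0.0366 by edgeR). The other three, Acy1, Acy3 and Aspa, split N-acetylated or acylated amino acids, and their log2 fold changes were -1.58, -1.43 and -1.23 (adjusted p = 0.0412, 0.0467 and 0.0337 by edgeR). Ces1d was 337 and 424 CPM against 91.6, 75.8 and 22.7 CPM, the largest difference of the list at -2.58, but did not pass (adjusted p = 0.0785 by edgeR). Pon2, a lactonase, was the one gene of the list with a positive value, at 0.67, and did not pass.

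Of 24 genes that fold, anchor or inhibit Lpl or take up plasma lipids, 0 passed by edgeR, with 8 at an unadjusted p under 0.05, 4 were called lower by DESeq2 and 0 by limma, and their median was 0.01. Gpihbp1, which anchors Lpl on capillary endothelium, was 6.34 and 6.46 CPM against 8.91, 5.73 and 15.7 CPM, and its groups overlapped. Angptl4, an inhibitor of Lpl, was the highest of the list at a log2 fold change of 1.28, with 53.5 and 88.8 CPM against 78.0, 108 and 333 CPM (adjusted p = 0.352 by edgeR). Apoc3, another inhibitor, was the lowest at -1.28 (adjusted p = 0.124 by edgeR). Lmf1, needed for Lpl to fold, was lower in all 3 Ksp-Cre/Prdm16fl/fl libraries at -0.55 (adjusted p = 0.119 by edgeR).

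Of 14 genes of monoamine synthesis, transport and breakdown tested beside Slc18a1, 0 passed by edgeR, with 2 at an unadjusted p under 0.05, 1 was called lower by DESeq2 and 0 by limma, and their median was 0.12. Th, Tph2 and Dbh, enzymes that make catecholamines and serotonin in neurons, had 0 counts in all 5 libraries. Ddc, the decarboxylase found in proximal tubules, was 33.7 and 34.2 CPM against 22.6, 31.1 and 86.7 CPM, with overlapping groups. Slc22a2, an organic cation transporter, was lowest at a log2 fold change of -1.22 (adjusted p = 0.0564 by edgeR), and Aoc2 was highest at 0.62 (adjusted p = 0.426 by edgeR). Of 7 other nucleases tested, 0 passed by edgeR, DESeq2 or limma and 2 had an unadjusted p under 0.05 by edgeR, with a median of 0.14, from Endog at -0.68 to Rnase4 at 0.79 (adjusted p = 0.158 and 0.103 by edgeR).

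**Figure D5:**
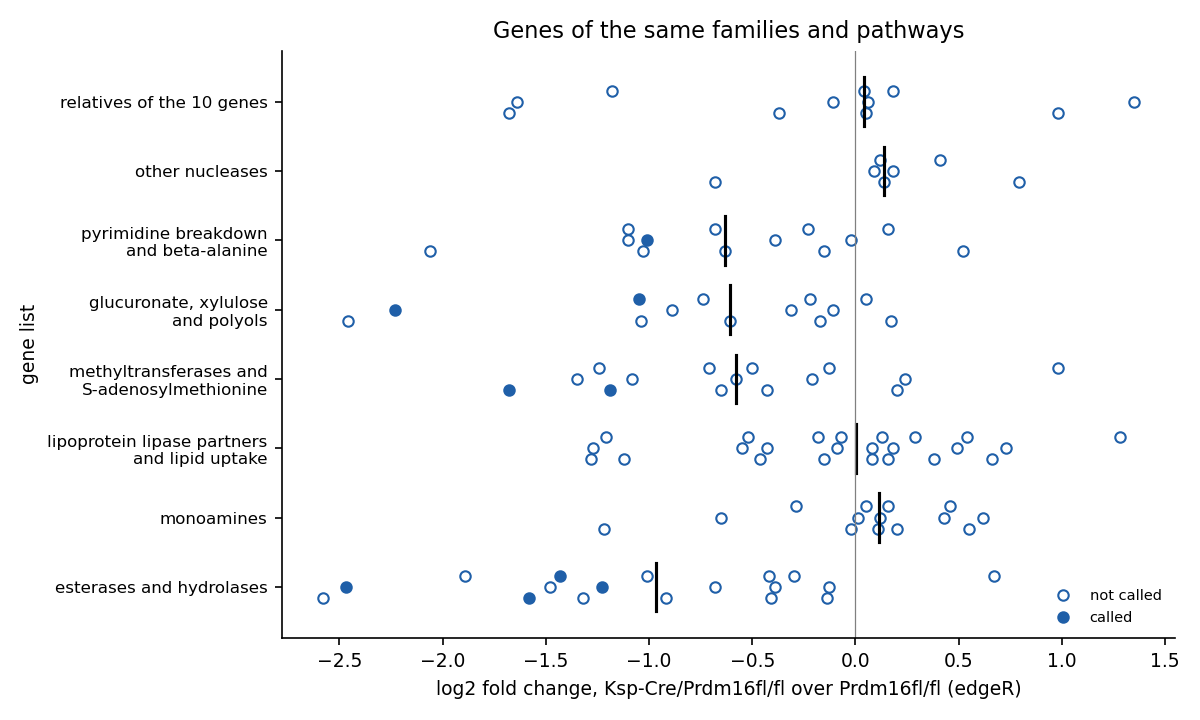
log2 fold change of each tested gene of the 8 lists (edgeR, Ksp-Cre/Prdm16fl/fl over Prdm16fl/fl), with filled points for genes past the thresholds and a black line at each list's median. The 9 filled points lie in 4 lists, the esterases holding 4, and the medians run from -0.96 for the esterases to 0.14 for the other nucleases.

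The plot of companion lists shows these medians and the genes past the thresholds. The number past them depended on which mice entered the fit. It was 0 without any one of Prdm16fl/fl mouse 1, Prdm16fl/fl mouse 3, Ksp-Cre/Prdm16fl/fl mouse 1 or Ksp-Cre/Prdm16fl/fl mouse 2, and 24 lower and 1 higher without Ksp-Cre/Prdm16fl/fl mouse 3.

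Position on the chromosomes was not used to choose the 10 genes, which lie on 8 chromosomes. Lpl and Slc18a1 lie 130.8 kb apart on chromosome 8 with 3 other genes listed between them, and Sectm1b and Dcxr lie 326.1 kb apart on chromosome 11 with 14 between them. Of 183 other genes tested within 500 kb of one of the 10, 4 were lower past the thresholds, or 2.19% beside 0.628% of all genes tested, and 0 were higher, beside 0.0793%. Their median log2 fold change was -0.08. All 3 Ksp-Cre/Prdm16fl/fl libraries lay below both Prdm16fl/fl libraries for 33.9%, beside 21.3% of all genes tested, and above both for 12.6%, beside 20.3%.

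The 4 neighbours past the thresholds lay more than 100 kb from the gene concerned. Ggct, which acts on gamma-glutamyl peptides in glutathione breakdown, lies 177.7 kb from Inmt and was 24.9 and 23.9 CPM against 11.8, 10.2 and 10.1 CPM, a log2 fold change of -1.19 (adjusted p = 0.0412 by edgeR). Ggt1, the brush border enzyme that starts glutathione breakdown, lies 119.4 kb from Upb1 and was 651 and 721 CPM against 238, 292 and 277 CPM, at -1.35 (adjusted p = 0.0366 by edgeR). Susd2, 194.9 kb from Upb1, was at -1.66 and Ttc36, 127.1 kb from BC049987, at -1.96 (both adjusted p = 0.0412 by edgeR). With either Prdm16fl/fl mouse, or Ksp-Cre/Prdm16fl/fl mouse 1 or 2, left out, the count was 0, and without Ksp-Cre/Prdm16fl/fl mouse 3 it was 11.

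The nearest genes other than the 10 had log2 fold changes from -2.06 for Gm11775 to 0.53 for Slx4 and Adora2a. Trap1, whose last exon overlaps that of Dnase1, was at -0.47 (adjusted p = 0.126 by edgeR), and Slx4 and Crebbp on either side were at 0.53 and -0.12. Gars and Mindy4 beside Inmt were at 0.16 and -0.40. Cct5, 0.7 kb from Cmbl, was 172 and 178 CPM against 189, 181 and 173 CPM, and Marchf6 on its other side was at 0.10. Rac3, 0.6 kb from Dcxr, was at 0.27. Ints10 and Lzts1, which flank Lpl and Slc18a1, were at -0.26 and -0.51, and Atp6v1b2, whose span overlaps that of Slc18a1 with 0 shared exon bases, was at -0.10. Adora2a and Gucd1 beside Upb1 were at 0.53 and -0.07, and Ddx6 near BC049987 was at 0.14.

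The other adjacent genes not yet given had lower values. Treh, the trehalase of the brush border, lies 1.0 kb from BC049987 and was 86.5 and 86.2 CPM against 37.1, 51.0 and 83.4 CPM, a log2 fold change of -0.60 (adjusted p = 0.372 by edgeR). BC049987 itself stayed low in mouse 3, where Treh was near the Prdm16fl/fl level, but BC049987 was chosen for small spread. Gm11775, on the other strand next to Sectm1b, was 1.75 and 1.29 CPM against 0.624, 0.236 and 0.200 CPM, at -2.06 (adjusted p = 0.126 by edgeR). Gm36210, 1.2 kb from Isoc2a, was under 2 CPM in every library and at -1.08 (adjusted p = 0.357 by edgeR).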

How the data were processed

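RNA-seq libraries of kidneys 11 days after UIRI were analysed, 2 of Prdm16fl/fl and 3 of Ksp-Cre/Prdm16fl/fl mice, grouped by the genotype in the sample labels. For each mouse the authors deposited the raw read count of each gene and, computed from it, the TPM and the FPKM. The submitters' processing notes name CASAVA, featureCounts 2.0.1 and DESeq2 1.16.1. They name the human build hg38, although the tables list mouse genes. The mouse build is not given in the sources used here, and 0 of the 10 genes start at the same position in the files and in GRCm38.p6, so positions are as deposited and promoters are those of GRCm38.p6. Whether counting used the strand is not given either. Broken lines of 5 genes were put together again. Mitochondrial-chromosome genes were not analysed here.

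Counts were filtered with filterByExpr, TMM-scaled and tested with the quasi-likelihood test of edgeR 4.0.16 (R 4.3.3) without covariates, over all 16394 genes kept. Standard errors are the size of the log2 fold change over the square root of the F value of this fit. For the 10 genes they are small partly through the choice for small spread. Genes were called where the adjusted p (Benjamini-Hochberg, edgeR) was below 0.05 with a log2 fold change of 1 or more in size. With 2 and 3 mice, 10 splits exist, and 0.1 is the smallest p of a one-sided exact permutation test. Replicates are separate mice. The tests were tested on simulated data.

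The 10 genes, the gene lists and the marker lists were chosen with earlier results of these data known. Named are the 10 genes, all their tested relatives, companion and neighbour genes called or at either end of their list, the nearest neighbours, the 5 genes closest in profile to Dnase1 and to the median of the 10, and the 5 with the widest gap. Other genes were picked for mention with their values in view. Alternatives were DESeq2 1.42.0 and limma 3.58.1 on log2(FPKM + 1) and log2(FPKM + 0.1), where 2 libraries had an FPKM of 1 or more. Others were scaling by library size or by edgeR's relative log expression (RLE) factors, no filter, and a loess correction for gene length (span 0.3). The mouse number as a block, leaving out each mouse, the adjusted p alone, and other neighbour distances were also run. Python 3.11.15 with pandas 2.3.3 and matplotlib 3.10.9 made the tables and figures. The FPKM values were used only for limma.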

Additional observations from a re-analysis of the deposited data

How the results depend on the processing

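The median log2 fold change of the 10 genes, -1.60, ranged from -1.70 to -1.59 with each mouse left out in turn. It was -1.49 with library size scaling, -1.48 with limma on log2(FPKM + 0.1) and -1.40 with limma on log2(FPKM + 1), scales on which the median of all genes moved from 0.038 to 0.149, 0.129 and 0.112. It moved by less than the SD of this median between libraries, 0.0762, under the other settings run. All 130 single values of the 10 genes stayed negative, from -3.42 to -1.05, a sign that follows from their choice for a wide gap. Of these 130 values, 30 moved by more than the gene's own SD between libraries, which differs from gene to gene. The log2 fold change of Prdm16 ranged from -0.54 to -0.18 and passed under none of the settings run.

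Counts of genes past the thresholds depended on the settings. All genes called lower, 103, became 381 with DESeq2, 250 without a filter, 41 and 30 with limma on log2(FPKM + 1) and log2(FPKM + 0.1), 34 with library size scaling and 29 with the gene length trend removed, and ranged from 0 to 502 with each mouse left out. Genes called higher, 13, became 112 with DESeq2, 37 without a filter and 4 with the length trend removed, and ranged from 0 to 231. Higher genes were 11.2% of those called, 22.7% with DESeq2, 26.1% with library size scaling, and 25.5% and 30.2% with limma. Companion genes called lower, 9, became 24 with DESeq2, 18 without a filter, 3 with library size scaling and with limma on log2(FPKM + 1), and 1 with limma on log2(FPKM + 0.1) and with the length trend removed. They ranged from 0 to 24 with each mouse left out, and companion genes called higher from 0 to 1. Neighbour genes called lower, 4, became 9 with DESeq2, 1 with library size scaling and with limma under both pseudocounts, and 0 with the length trend removed, and ranged from 0 to 11. The count was 4 at 250 kb and at 1000 kb. The cause of these shifts was not tested.

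The counts of 0 came without any one of Prdm16fl/fl mouse 1, Prdm16fl/fl mouse 3, Ksp-Cre/Prdm16fl/fl mouse 1 and Ksp-Cre/Prdm16fl/fl mouse 2 by edgeR, where 1749, 1330, 2514 and 2298 genes had an unadjusted p under 0.05. These fits have fewer samples, and a lone Prdm16fl/fl library is assumed to vary like the other group. The largest counts came without Ksp-Cre/Prdm16fl/fl mouse 3. Of 462 values of 36 other named genes, 107 no longer passed the thresholds, 14 newly passed them and 10, of 5 genes past the thresholds under none of these settings, changed sign. With each mouse left out in turn, Isoc1 ranged from -0.04 to 0.22, Slc18a2 from -0.12 to 0.22, Dnase1l2 from -0.10 to 0.14 and Dhdh from -0.07 to 0.42. With library size scaling Sectm1a was 0.01. With the mouse number as a block Dhdh was -0.11, Isoc1 -0.02 and Slc18a2 -0.05.

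With the mouse number as a replicate block, 0 genes were called lower and 0 higher by edgeR, among all genes, companions and neighbours, although 2061 genes had an unadjusted p under 0.05. Ksp-Cre/Prdm16fl/fl mouse 2 has no partner of its number, so in this fit it adds nothing to the genotype difference. Little is then left to estimate the spread, so these counts cannot show an effect of pairing. The median of the 10 genes was -1.61 under this block. Deviations of same-numbered mice from their group means correlated at 0.00102 for number 1 and -0.022 for number 3 over 16394 genes. Deviations of the Prdm16fl/fl mice from their shared mean mirror each other, so these values are not independent and cannot settle a pairing. The labels give only a shared number.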
